A study of Schmidtea mediterranea with 24 samples.

Results

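A set of 55 transcripts of the planarian flatworm Schmidtea mediterranea was nearly lost from the cut end of tail fragments within 2 days of amputation. The members were chosen from measured values, in control RNAi libraries alone. A transcript contig was taken if its mean at 0 h was at least 5 CPM (a count scaled by the total counts of its library in the usual CPM unit) and if its means at 2 days and at 4 days were each at least 16-fold below that. The rule took 55 of the 28069 contig IDs in the count table, and of the 11601 IDs that had at least 5 CPM at 0 h in control RNAi. Their fall in control RNAi libraries is therefore a description of the choice. The egr-2 RNAi libraries took no part in it and give the same measure in separate animals.

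RNA came from the anterior region of tail fragments of asexual worms, clonal line CIW4, and each library pooled tissue of 10 fragments. Worms of the egr-2 RNAi group had eaten double-stranded RNA against egr-2, and worms of the control RNAi group double-stranded RNA against egfp, a jellyfish gene that planarians lack. All worms received 6 feedings and were starved before the cut. There were 4 libraries each of egr-2 RNAi and of control RNAi at 0 h, 2 days and 4 days after amputation, 24 in all, with 13449251 to 30829850 counts per library.

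Planarians replace lost body parts from neoblasts, the dividing stem cells spread through the body. After amputation a mass of new tissue, the blastema, forms at the wound, while the old tissue of the fragment is reshaped to the proportions of a smaller animal. The anterior end of a tail fragment holds the wound from which a new head grows. Genes of the early growth response (egr) family encode zinc-finger transcription factors. Contig IDs in the tables come with no gene names, so no role is given for any member, the tissue could not be checked against marker genes, and the egr-2 transcript is not analysed here. In pooled tissue, fewer cells of a type and less RNA per cell cannot be told apart.

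Together the members made up 0.819% to 0.958% of the counts of the egr-2 RNAi libraries at 0 h and 0.844% to 1.36% of those of control RNAi, and at most 0.0438% of the counts of any later library. Their summed level was 9240, 8969, 9575 and 8192 CPM in the 4 egr-2 RNAi libraries at 0 h, against 8442, 10673, 10967 and 13631 CPM in control RNAi. At 2 days the sum was 297, 188, 259 and 284 CPM in egr-2 RNAi and 401, 407, 438 and 238 CPM in control RNAi. At 4 days it was 126, 173, 144 and 145 CPM in egr-2 RNAi and 203, 169, 207 and 139 CPM in control RNAi. The egr-2 RNAi libraries thus fell into 3 ranges by time that did not overlap, and at each time the ranges of egr-2 RNAi and control RNAi overlapped. At 0 h each of the 55 transcripts was above 1 CPM in every library of both conditions. At 2 days, 4 to 6 of them had no count in a given egr-2 RNAi library and 1 to 4 in a given control RNAi library.

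**Figure D1:**
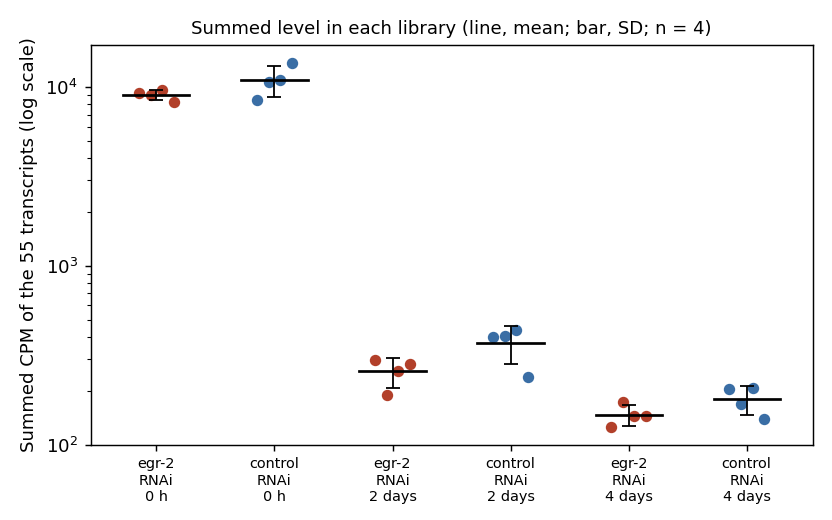
Summed CPM of the 55 transcripts (log axis) in each library, by RNAi condition and time after amputation; points are libraries, lines are means and bars are SD (n = 4). The egr-2 RNAi means were 8994, 257 and 147 CPM at 0 h, 2 days and 4 days, against 10928, 371 and 179 CPM in control RNAi.

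The loss was tested in the egr-2 RNAi libraries. From 0 h to 2 days, 55 of 55 transcripts fell by edgeR's quasi-likelihood test at an adjusted p below 0.05, where 24.6% of the 19761 tested IDs did. In 55 of 55 the 2 day libraries lay wholly below the 0 h libraries, against 10.6% of tested IDs. The log2 fold changes ran from -10.64 to -4.55 with a median of -6.21, beside a median of 0.02 over all tested IDs. The lowest was that of dd_Smed_v6_2317_0_1, which had no count at 2 days in egr-2 RNAi, so its size is set by the fit. From 0 h to 4 days, again 55 of 55 fell, against 24.9% of tested IDs, with no overlap in 55 of 55, against 9.40%. These log2 fold changes ran from -10.09 to -3.95 with a median of -5.71, beside 0.04 over all tested IDs. The largest adjusted p among the 55 was 1.9e-06 at 2 days and 2.51e-08 at 4 days. All 55 had passed the filter on low counts, as their level at 0 h ensured.

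Applied to the egr-2 RNAi means, the rule took 71 IDs, which is 0.618% of the 11495 IDs with at least 5 CPM at 0 h in egr-2 RNAi. Of the 55 members 52 were among them, 94.5% of the members and 73.2% of the egr-2 RNAi list. The 3 others fell as well and missed single limits. The transcript dd_Smed_v6_1141_0_1 (1089 bases) had 122, 101, 102 and 89.4 CPM at 0 h in egr-2 RNAi, against 3.50, 4.44, 3.38 and 3.97 CPM at 2 days and 7.64, 10.4, 8.14 and 7.74 CPM at 4 days. The 4 day mean was 8.20% of the 0 h mean, the largest share left of any member. For dd_Smed_v6_1360_0_1 (632 bases) 6.70% was left at 4 days, with 4.77 ± 1.00 CPM at 4 days against 71.2 ± 19.0 CPM at 0 h (SD, n = 4). The third, dd_Smed_v6_12445_0_1 (945 bases), had only 4.20 ± 1.04 CPM at 0 h in egr-2 RNAi (SD, n = 4), under the 5 CPM minimum.

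The level left at 2 days in egr-2 RNAi was a median of 1.67% of the 0 h level over the 55 transcripts, from 0% to 5.20%. At 4 days it was a median of 2.44%, from 0.105% to 8.20%. The control RNAi values, fixed by the rule to lie at or below 6.25%, had medians of 1.81% at 2 days and 2.62% at 4 days. In egr-2 RNAi, 22 transcripts were below 1% of their 0 h level at 2 days and 14 at 4 days. Over all 11601 IDs with at least 5 CPM at 0 h in control RNAi, the median level in egr-2 RNAi was 121% of the 0 h level at 2 days and 123% at 4 days. These levels are scaled by total counts, which moves the median log2 fold change of all tested IDs up by 0.29 at 2 days and 0.34 at 4 days relative to the TMM scaling used in the test.

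The deepest falls came close to a complete loss. The transcript dd_Smed_v6_534_0_1 (581 bases) had 263, 258, 240 and 132 CPM in the egr-2 RNAi libraries at 0 h. At 2 days it had 0.713, 0.0988, 0.272 and 0.142 CPM, and at 4 days 0.135, 0.345, 0.218 and 0.430 CPM. All later libraries lay far below all 0 h libraries and the later times overlapped each other. Its log2 fold change in egr-2 RNAi was -9.90 (SE 0.33, edgeR adjusted p of 7.2e-20) at 2 days and -9.95 (SE 0.31, edgeR adjusted p of 1.59e-20) at 4 days. Without egr-2 RNAi 2 day replicate 1, its highest library at that time, the 2 day value was -10.65. In control RNAi it had 193, 272, 320 and 374 CPM at 0 h and means of 0.250 and 0.291 CPM later.

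For dd_Smed_v6_2317_0_1 (355 bases) the egr-2 RNAi libraries had 8.82, 7.27, 7.51 and 5.65 CPM at 0 h and no count in any of the 4 libraries at 2 days. Taking 3 counts over the group as the floor, the 2 day level was at least 183-fold lower. At 4 days it had 0.0338, 0.154, 0 and 0.108 CPM. The fall at 4 days had a log2 fold change of -6.88 (SE 0.33, edgeR adjusted p of 1.92e-15). The transcript dd_Smed_v6_12445_0_1 also had no count at 2 days in egr-2 RNAi, at least 105-fold below its 0 h level.

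Not all members stayed at their 2 day level. From 2 to 4 days in egr-2 RNAi, 9 of the 55 fell further and 15 rose again by edgeR's quasi-likelihood test, while 31 did not pass it. Of all tested IDs 14.4% were called lower and 12.3% higher in this comparison, so the share of members that fell further was near that of all tested IDs and is no trait of the members. The 2 day and 4 day libraries did not overlap for 8 members with a fall and 16 with a rise, against 11.9% and 16.9% of tested IDs. Both directions occurred among transcripts that had lost most of their 0 h level, and no member returned above 8.20% of it.

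**Figure D2:**
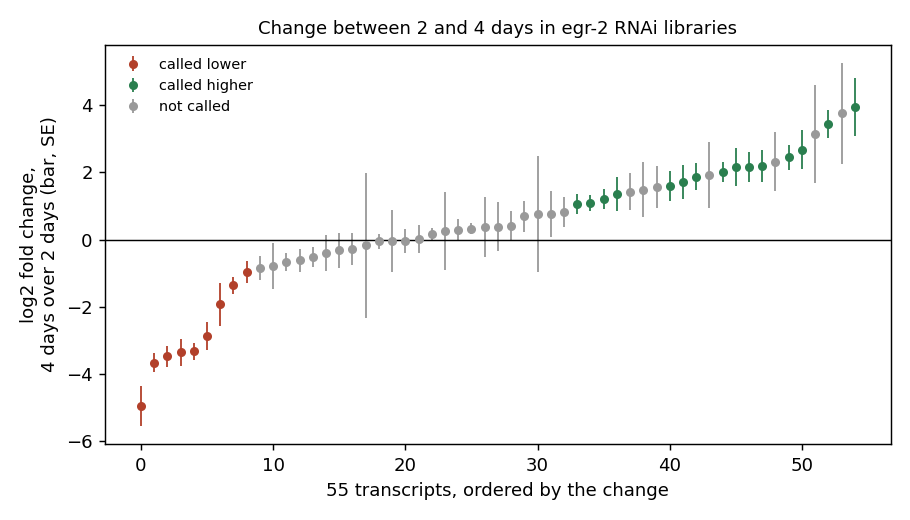
Log2 fold change from 2 to 4 days in egr-2 RNAi libraries for the 55 transcripts in order of the change (bars, SE), coloured by edgeR's call at an adjusted p below 0.05. Among the calls, 9 lie between -4.95 and -0.96 and 15 between 1.06 and 3.95.

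The 2 day values entered the call, so the levels of the called members are a description. For the 9 that fell further, the level in egr-2 RNAi was 0.105% to 1.63% of the 0 h level at 4 days, against 1.67% to 5.20% at 2 days. In control RNAi the 4 day mean was below the 2 day mean in 9 of these 9. The most abundant members per kilobase of contig at 0 h, dd_Smed_v6_345_0_1 and dd_Smed_v6_497_0_1, were of this kind, with 1809 and 921 CPM per kilobase averaged over the 8 libraries of 0 h.

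The transcript dd_Smed_v6_345_0_1 (806 bases) had 1485, 1309, 1230 and 857 CPM at 0 h in egr-2 RNAi, 61.7, 24.8, 57.9 and 48.1 CPM at 2 days and 3.42, 5.49, 4.14 and 2.72 CPM at 4 days. In control RNAi it had 1583, 1494, 1806 and 1897 CPM at 0 h, 102, 116, 135 and 56.6 CPM at 2 days and 8.89, 7.39, 8.37 and 7.97 CPM at 4 days. It thus fell from 0 h to 2 days and again from 2 to 4 days in both conditions. The fall from 2 to 4 days in egr-2 RNAi had a log2 fold change of -3.66 (SE 0.27, edgeR adjusted p of 4.02e-11). The other most abundant member, dd_Smed_v6_497_0_1 (895 bases), averaged 701 ± 102, 25.5 ± 7.39 and 2.66 ± 0.91 CPM at 0 h, 2 days and 4 days in egr-2 RNAi (SD, n = 4), with a late log2 fold change of -3.32 (SE 0.25, edgeR adjusted p of 5.47e-11).

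The largest late fall was that of dd_Smed_v6_3166_0_1 (316 bases). It had 54.5, 55.1, 54.5 and 42.6 CPM at 0 h in egr-2 RNAi, 2.20, 0.889, 2.02 and 2.13 CPM at 2 days and 0, 0.0384, 0 and 0.179 CPM at 4 days. The 3 times did not overlap. Its log2 fold change from 2 to 4 days was -4.95 (SE 0.60, edgeR adjusted p of 2.64e-07), and at 4 days 6 counts in all were left in the 4 libraries. Without egr-2 RNAi 4 day replicate 4, which held most of these, it was -6.69.

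The 15 that rose again stood in egr-2 RNAi at 2.28% to 8.20% of the 0 h level at 4 days, against 0.247% to 3.69% at 2 days. At 2 days this range overlapped that of the 9, and the 31 not called spanned 0% to 5.16%. In control RNAi the 4 day mean was above the 2 day mean in 15 of these 15. Of the 31 that were not called, control RNAi was lower at 4 days in 9 and higher in 22. The choice of members set only an upper limit on both later control levels and no order between them.

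The transcript dd_Smed_v6_367_0_1 (480 bases) had 150, 146, 141 and 98.6 CPM at 0 h in egr-2 RNAi. It had 0.194, 0.790, 0.490 and 0.662 CPM at 2 days and 6.05, 7.64, 6.43 and 5.05 CPM at 4 days, so that each 4 day library lay above each 2 day library. The late rise had a log2 fold change of 3.43 (SE 0.42, edgeR adjusted p of 3.02e-07). In control RNAi the means were 171, 0.663 and 8.98 CPM at 0 h, 2 days and 4 days.

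The largest late rise was that of dd_Smed_v6_41_1_1 (615 bases), with 1.56, 2.34, 1.53 and 1.76 CPM at 4 days in egr-2 RNAi, against 0.0648, 0.247, 0.109 and 0 CPM at 2 days. Its log2 fold change was 3.95 (SE 0.86, edgeR adjusted p of 0.000868), and 8 counts in all stood behind the 2 day level. Without egr-2 RNAi 2 day replicate 2 it was 4.85. At 0 h it had 42.6 ± 5.63 CPM in egr-2 RNAi (SD, n = 4). Its component has other contigs in the count table, to which reads may have been divided. One of these, dd_Smed_v6_41_0_1, had means of 657, 238 and 189 CPM at 0 h, 2 days and 4 days in egr-2 RNAi.

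**Figure D3:**
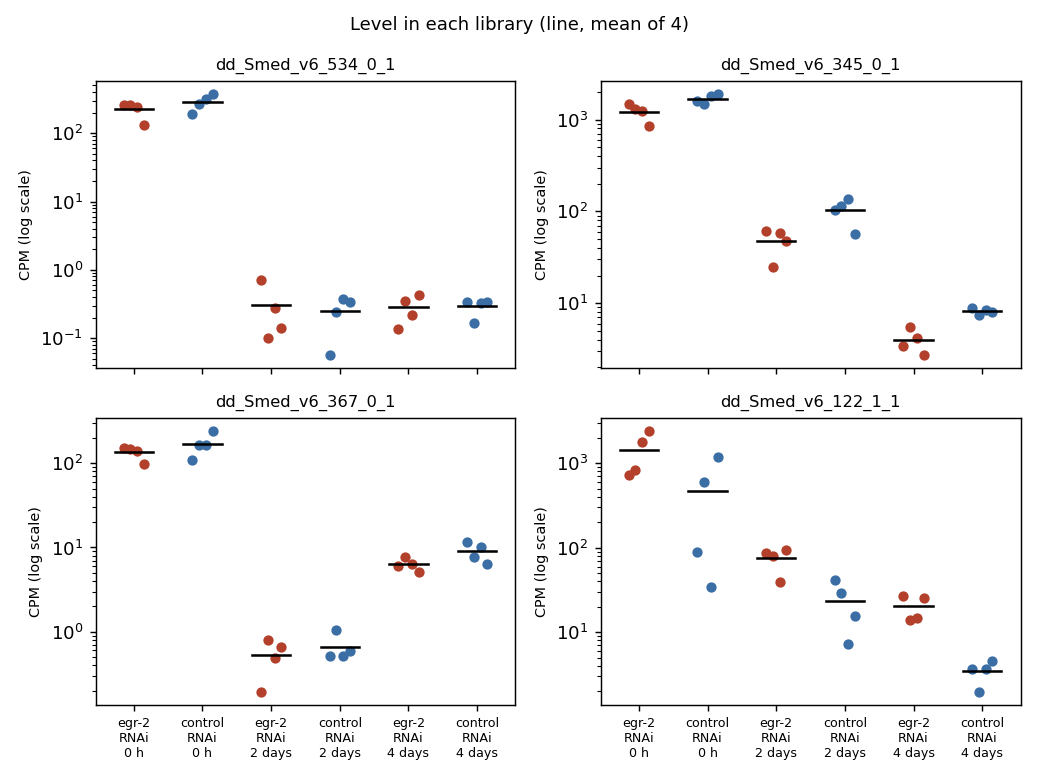
CPM (log axes) of 4 of the transcripts in each library by RNAi condition and time; lines are means of 4 libraries. One stayed low (dd_Smed_v6_534_0_1), one fell again after 2 days (dd_Smed_v6_345_0_1), one rose again (dd_Smed_v6_367_0_1) and one varied widely at 0 h (dd_Smed_v6_122_1_1, 34.7 to 1171 CPM in control RNAi).

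The members had a wide spread between the 0 h libraries. The coefficient of variation at 0 h had a median of 18.6% over the members in egr-2 RNAi and 20.2% in control RNAi, beside 9.39% and 6.28% over the 11601 IDs with at least 5 CPM at 0 h in control RNAi. The variation was shared. Control RNAi replicate 4 was the highest library of its group for 43 of 55 members and control RNAi replicate 1 the lowest for 49. In egr-2 RNAi, replicate 4 was the lowest for 46 and replicate 1 the highest for 33. In control RNAi the library with the fewest counts, replicate 1 with 13449251, was the low one. In egr-2 RNAi the library with the most counts, replicate 4 with 26924688, was the low one. The part of depth in these orders was not tested. The same orders were not counted over all tested IDs, so they are not shown to be a trait of the members. The control RNAi libraries at 0 h also took part in the choice of members, by their mean.

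**Figure D4:**
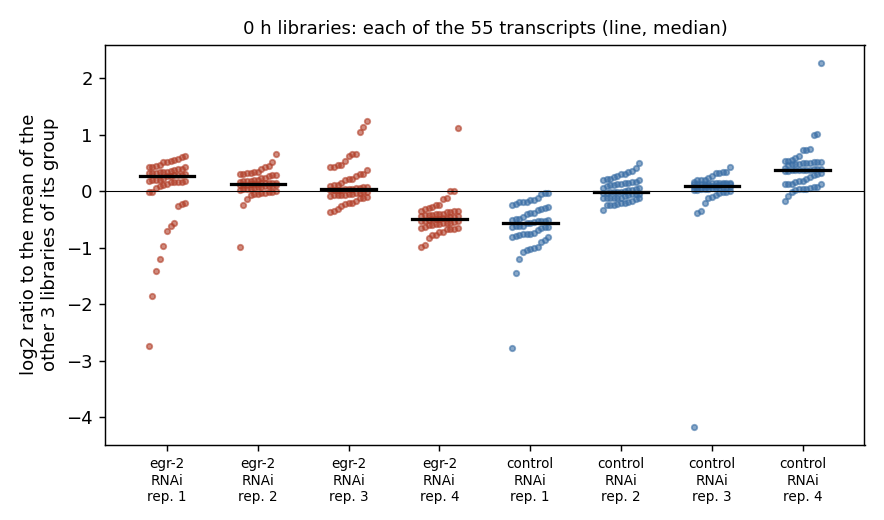
Log2 ratio of each 0 h library to the mean of the other 3 libraries of its group, for each of the 55 transcripts (points) with the median (line). As plain ratios the medians were 1.20, 1.09, 1.02 and 0.713 for egr-2 RNAi replicates 1 to 4 and 0.677, 0.988, 1.06 and 1.30 for control RNAi replicates 1 to 4.

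Replicate 1 of egr-2 RNAi at 0 h departed from this pattern for a few members. It was at least 2-fold below the mean of its mates for 4 transcripts, chosen after their values were seen: dd_Smed_v6_12898_0_1, dd_Smed_v6_1119_0_1, dd_Smed_v6_8432_0_1 and dd_Smed_v6_122_1_1. The first of these had 1.49, 10.8, 13.7 and 5.24 CPM in the egr-2 RNAi libraries at 0 h, against 14.3, 19.6, 16.8 and 16.8 CPM in control RNAi. Without that replicate the falls in egr-2 RNAi from 0 h to 2 days and to 4 days were still called for 55 of 55 members.

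One member had the widest spread of the 55 in control RNAi at 0 h, though not in egr-2 RNAi. The transcript dd_Smed_v6_122_1_1 (1259 bases) had 736, 836, 1791 and 2429 CPM at 0 h in egr-2 RNAi, against 88.0, 607, 34.7 and 1171 CPM in control RNAi, and these ranges overlapped. At 2 days it had 86.9, 80.4, 39.4 and 94.3 CPM in egr-2 RNAi, against 41.3, 29.2, 7.31 and 15.6 CPM in control RNAi. At 4 days it had 27.1, 13.9, 14.6 and 25.7 CPM in egr-2 RNAi, against 3.67, 1.98, 3.70 and 4.61 CPM in control RNAi, with no overlap. Its component has another contig, dd_Smed_v6_122_0_1, with means of 2391 CPM in egr-2 RNAi and 1753 CPM in control RNAi at 0 h, so reads may have been divided between them. That contig fell as well, to means of 185 and 136 CPM at 2 and 4 days in egr-2 RNAi. In control RNAi these means were 151 and 154 CPM. Within egr-2 RNAi the fall of dd_Smed_v6_122_1_1 to 2 days had a log2 fold change of -4.55 (SE 0.68, edgeR adjusted p of 1.9e-06).

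The members were then set side by side between the RNAi conditions. The control libraries of these comparisons also chose the members, as high at 0 h and low later, so these counts are a description only. At 0 h the mean CPM in egr-2 RNAi was below that in control RNAi for 54 of 55 members, and the exception was dd_Smed_v6_122_1_1. With TMM scaling 53 of 55 log2 fold changes were negative, with a median of -0.40, beside 0.02 over all tested IDs. The edgeR test called 14 members, each lower in egr-2 RNAi, where 1.44% of tested IDs were called lower. No overlap with the lower values in egr-2 RNAi was seen for 11 members and for 6.13% of tested IDs. The count of 14 rested on single libraries. When egr-2 RNAi replicate 4 was left out it was 5. When control RNAi replicates 2, 3 and 4 were left out in turn it was 9, 6 and 7. DESeq2 called 6 members, and edgeR fitted to the 0 h libraries alone called 1. The share of all tested IDs called in these other runs is not given here.

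Among members without overlap at 0 h, the lowest ratios were those of dd_Smed_v6_4205_0_1 and dd_Smed_v6_1119_0_1. The transcript dd_Smed_v6_4205_0_1 (278 bases) had 14.3, 22.9, 26.7 and 13.4 CPM in egr-2 RNAi, against 29.7, 41.6, 55.4 and 59.6 CPM in control RNAi, a log2 fold change of -1.21 (SE 0.22). The transcript dd_Smed_v6_1119_0_1 (480 bases) had 15.8, 58.4, 79.1 and 33.9 CPM in egr-2 RNAi, against 86.5, 118, 103 and 108 CPM in control RNAi, a log2 fold change of -1.08 (SE 0.23). The lowest of its values is that of egr-2 RNAi replicate 1, the library that stood low for 4 members.

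At 2 days the mean was lower in egr-2 RNAi for 47 of 55 members. The median log2 fold change was -0.63, beside 0.0028 over all tested IDs. The edgeR test called 6, each lower, where 0.187% of tested IDs were called lower. No overlap with lower values in egr-2 RNAi was seen for 9 members and for 3.97% of tested IDs. Of the 6 called, 5 were among the 9 that fell further from 2 to 4 days in egr-2 RNAi. Those 9 were also the more abundant members at 2 days, with a median of 11.1 CPM in egr-2 RNAi. The median was 0.534 CPM for the 15 that rose and 0.509 CPM for the 31 not called. The part of abundance in this overlap was not tested. One of the 5, dd_Smed_v6_688_0_1 (1423 bases), had 5.90, 2.32, 9.48 and 5.92 CPM in egr-2 RNAi, against 18.6, 16.8, 15.9 and 9.74 CPM in control RNAi. When egr-2 RNAi replicates 1, 2 and 4 were left out in turn, 3, 0 and 0 members were called. When control RNAi replicates 2 and 3 were left out in turn, 1 and 0 were called. DESeq2 on all libraries called 8, and edgeR on the 2 day libraries alone called 10, again with no share of all tested IDs beside these counts. For dd_Smed_v6_12445_0_1, with no count in egr-2 RNAi, control RNAi had 0.0566, 0.0953, 0.139 and 0.0836 CPM, from 8 counts in all.

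At 4 days the mean was lower in egr-2 RNAi for 48 of 55 members. The median log2 fold change was -0.60, beside -0.0142 over all tested IDs. The edgeR test called 1, dd_Smed_v6_1382_0_1, named after its value was seen, where 0.653% of tested IDs were called lower. The libraries did not overlap for 6 members with lower values in egr-2 RNAi, against 4.17% of tested IDs, and for 1 with higher values, dd_Smed_v6_122_1_1, against 4.86%. The transcript dd_Smed_v6_8432_0_1 (1577 bases) had 0.609, 0.461, 0.473 and 0.788 CPM in egr-2 RNAi, against 1.01, 1.25, 1.49 and 1.26 CPM in control RNAi. The transcript dd_Smed_v6_1014_0_1 (317 bases) had 0.0338, 0.0384, 0.0363 and 0 CPM in egr-2 RNAi, from 3 counts, against 0.464, 0.0660, 0.162 and 0.0678 CPM in control RNAi, from 20 counts. With egr-2 RNAi replicates 1, 2 and 4 left out in turn, 0, 2 and 0 members were called, and with control RNAi replicates 3 and 4 left out in turn, 0 and 2. DESeq2 called 6, and a fit to the 4 day libraries alone called 10, also without a share of all tested IDs.

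**Figure D5:**
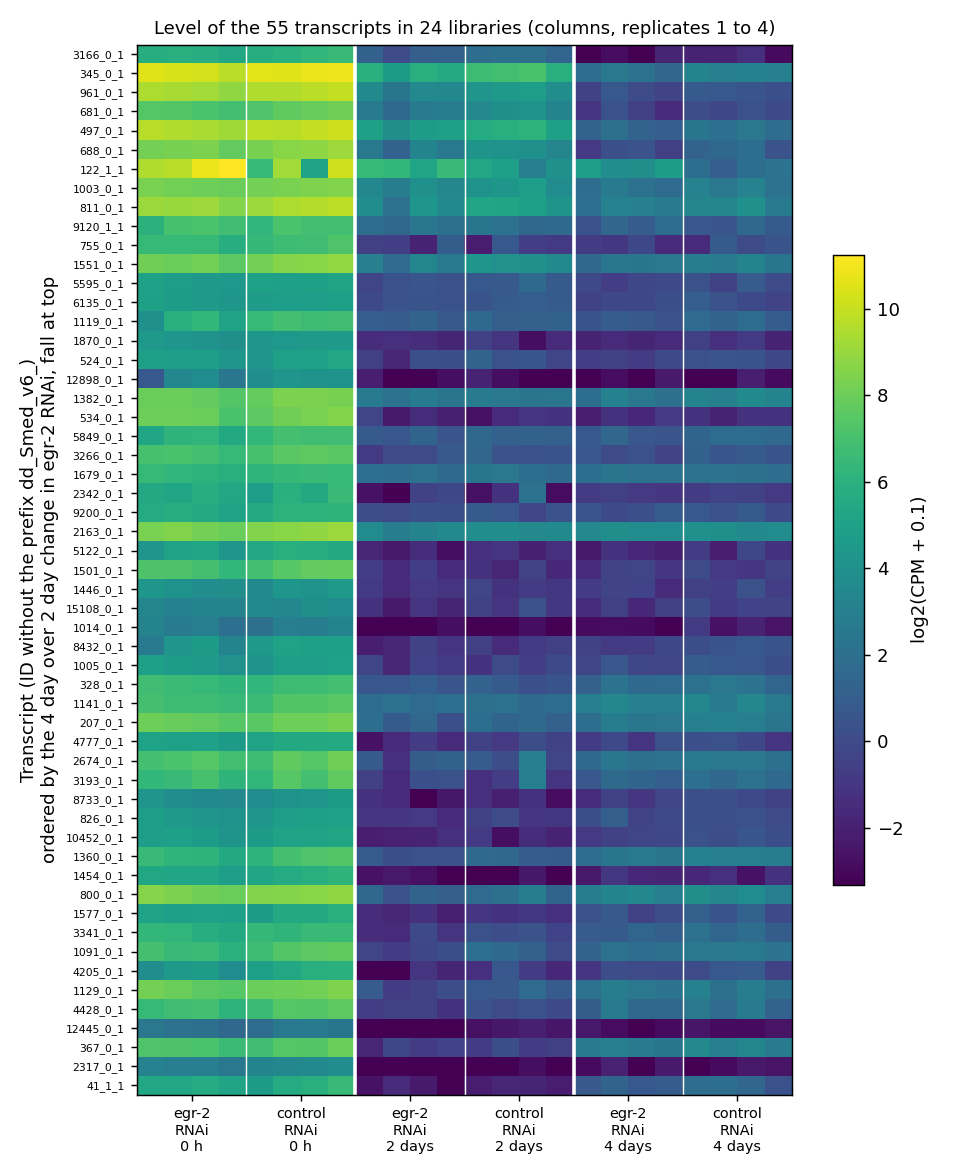
Log2(CPM + 0.1) of the 55 transcripts (rows, ordered by the change from 2 to 4 days in egr-2 RNAi) in the 24 libraries (columns, replicates 1 to 4 of each group). The top rows are the 9 members called lower from 2 to 4 days in egr-2 RNAi, and in 9 of 9 the control RNAi mean fell as well. Further down lie the 15 called higher, mixed with members not called. The control RNAi mean rose in 15 of these 15, while members not called went either way.

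The contigs of the members were short. Their median length was 834 bases, from 278 to 4495 bases, beside a median of 1582 bases for the 11601 IDs with at least 5 CPM at 0 h in control RNAi. Contigs under 500 bases made up 14 of the 55 members (25.5%) and 4.09% of those IDs, and contigs under 1000 bases 34 of 55 (61.8%) and 23.1%. At 0 h the members had a median of 86.3 CPM per kilobase over the 8 libraries, beside 16.9 CPM per kilobase for those IDs. The control RNAi libraries among these also chose the members as high at 0 h. A short contig also raises a value per kilobase by itself, so this level is a description only. For 52 of 55 the count table lists no other contig of the same component. The exceptions were dd_Smed_v6_122_1_1, dd_Smed_v6_41_1_1 and dd_Smed_v6_9120_1_1. Of the last, chosen after its values were seen, the other contig had 4.38 CPM at 4 days, against 2.75 CPM at 0 h, in egr-2 RNAi.

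The limits of the rule cut through a continuous range. Just inside the 16-fold limit were dd_Smed_v6_681_0_1, whose smaller fall in control RNAi was 16.1-fold, and dd_Smed_v6_5595_0_1, with 16.3-fold. Just outside were dd_Smed_v6_5225_0_1, with 15.7-fold, and dd_Smed_v6_2803_0_1, with 15.6-fold. At the abundance limit, dd_Smed_v6_12445_0_1 (5.18 CPM) and dd_Smed_v6_1014_0_1 (6.98 CPM) lay inside, and dd_Smed_v6_18786_0_1 (4.89 CPM) and dd_Smed_v6_29341_0_1 (4.50 CPM) outside.

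The authors' deposited table of comparisons held 55 of the 55 members among its 16812 IDs. The authors' deposited table listed 55 of 55 as lower at a false discovery rate below 0.05 from 0 h to 2 days and from 0 h to 4 days in egr-2 RNAi. Between the RNAi conditions the authors' deposited table called 12 members lower at 0 h, 16 lower at 2 days, and 9 lower and 1 higher at 4 days. The share of all 16812 IDs called in each comparison was not counted here, so these counts have no background beside them. The control libraries that chose the members also entered the comparisons between RNAi conditions, whose counts are a description only.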

How the data were processed

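RNA-seq libraries (NEBNext Ultra) were made from roughly 500 ng of total RNA each, per the labels' protocols, and read as pairs of 150 bases; the design text also names BBDuk and edgeR. The authors deposited raw read counts per transcript contig, and per the submitters' processing notes they used FastQC 0.11.5, Bowtie2 2.3.1 and featureCounts of Subread 1.6.3. Trimming settings and strand use were not given in the sources used here. Neither table pairs contig IDs with gene names, so no named gene list could be counted and no sequence or genome position is printed. Per the file headers, the authors' second deposited table holds log2 fold changes and false discovery rates, which are adjusted p-values.

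Levels are CPM computed from the deposited counts with column sums, as in the rule for members. The test was edgeR 4.0.16 (quasi-likelihood, limma 3.58.1, R 4.3.3) on the counts of all 24 libraries with 6 group means, TMM factors, filterByExpr (minimum count 10, minimum total 15; 19761 IDs) and Benjamini-Hochberg adjustment over all of these at 0.05. Standard errors derive from the F statistic. The fit was tested on simulated data with the same spread for every ID, for egr-2 RNAi at 2 days against 0 h. Known changes were placed in IDs averaging at least 5 CPM. There the fit found the larger changes and missed part of the smallest. Changes at lower levels and in the other comparisons were not simulated. Groups and replicate numbers come from the sample titles. The 36 replicate pairs differed by more than counting noise (chi-square per degree of freedom 2.53 to 25.9). Alternatives were RLE factors, scaling by total counts, 2 other filters, DESeq2 1.42.0, a fit of the compared groups only, a replicate block, each library left out in turn, and other limits in the rule.

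The members, comparisons and lists were chosen with earlier results of these data known. With no gene names, the named IDs were at most 2 falls and 2 rises per comparison, by log2 fold change among called members without overlap between groups (between RNAi conditions, without overlap), the 2 most abundant per kilobase at 0 h, those at the limits of the rule, and members that missed it in egr-2 RNAi. Floors of 3 counts cover counting error only.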

Additional observations from a re-analysis of the deposited data

Results flagged for a closer look

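Among the named members and their sum, 114 sets of 4 libraries were searched for a library far from its group mates, which chance alone finds in about 1 in 20. There were 12. In egr-2 RNAi at 0 h, replicate 4 was the low library for dd_Smed_v6_534_0_1 (132 CPM, the others 240 to 263), dd_Smed_v6_3166_0_1 (42.6 CPM, the others 54.5 to 55.1) and dd_Smed_v6_367_0_1 (98.6 CPM, the others 141 to 150). It is the library that was lowest of its group for 46 of the 55 members. In egr-2 RNAi at 2 days, replicate 2 was low for dd_Smed_v6_3166_0_1 (0.889 CPM, the others 2.02 to 2.20) and replicate 1 high for dd_Smed_v6_1360_0_1 (1.81 CPM, the others 1.04 to 1.14). In control RNAi at 2 days, replicate 2 was high for dd_Smed_v6_367_0_1 (1.05 CPM, the others 0.509 to 0.585) and replicate 3 for dd_Smed_v6_5595_0_1 (3.19 CPM, the others 1.53 to 1.63). In control RNAi at 4 days, replicate 2 was low for dd_Smed_v6_534_0_1 (0.165 CPM, the others 0.324 to 0.339).

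The remaining 4 rest on single counts. At 2 days dd_Smed_v6_1014_0_1 had 0.0473 CPM in egr-2 RNAi replicate 4 and 0.0463 CPM in control RNAi replicate 3, and no count in the other libraries of those groups. At 4 days it had 0 CPM in egr-2 RNAi replicate 4, the others 0.0338 to 0.0384. At 2 days dd_Smed_v6_2317_0_1 had 0.0463 CPM in control RNAi replicate 3 and no count in the other control RNAi libraries.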

How the results depend on the processing

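The falls of 55 of 55 members in egr-2 RNAi at 2 days and at 4 days held under each alternative run, leave-one-out included. From 2 to 4 days, 9 members were called lower and 15 higher. These counts ranged over 7 to 9 and 14 to 17 with 1 library left out, and were 11 and 18 with DESeq2. Of the log2 fold changes of named members within egr-2 RNAi, a part and not all was compared between runs. Among those compared, 600 of 600 values kept direction and call, while the sizes of falls that rest on a few late counts moved most. The 2 day value of dd_Smed_v6_2317_0_1, with no count at 2 days, was -10.64 with edgeR and -9.82 with DESeq2. The members that meet the rule in egr-2 RNAi numbered 51 to 53 with 1 library left out. The rule took 107 IDs with a limit of 1/8 and 24 with 1/32, and 50 to 58 with 1 control RNAi library left out. It took 66 with TMM-scaled CPM, 64 with a minimum of 1 CPM at 0 h and 56 with medians of the 4 libraries. Of the counts between RNAi conditions, the one at 0 h (14) was 6 with DESeq2, 1 when fitted to the compared groups alone and 5 to 20 with 1 library left out. The count at 2 days (6) was 10 when fitted to the compared groups alone and 0 to 8 with 1 library left out. The count at 4 days (1) was 2 with scaling by total counts alone, 3 with no filter on low counts, 2 with at least 1 CPM in at least 4 libraries, 3 with the replicate block, 6 with DESeq2, 10 when fitted to the compared groups alone and 0 to 2 with 1 library left out. The cause was not tested. The counts of members called in the alternative runs have no share of all tested IDs beside them. A change in such a count may follow a change in the calls over all tested IDs. Deviations of same-numbered libraries correlated weakly, at -0.064 to 0.111, and the main fit used no replicate block. A weak correlation over all tested IDs cannot exclude that same-numbered libraries share a source. At 2 and 4 days many members rest on a few counts per library, which limits the late changes and the differences between RNAi conditions.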
